A study of Rattus norvegicus with 8 samples.

Results

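The genes described here build, switch on and remove the aldosterone-regulated sodium channel of the kidney, together with subunits of the sodium pump that works with it. They were Scnn1a, Scnn1b and Scnn1g, the α, β and γ subunits of the epithelial sodium channel (ENaC), Nr3c2, the mineralocorticoid receptor, and Hsd11b2, the enzyme that inactivates glucocorticoids in aldosterone target cells. Nedd4l, a ubiquitin ligase that takes the channel off the cell surface, Atp1b1, the β1 subunit of the Na,K-ATPase, and Fxyd2 and Fxyd4, small regulators of that pump, completed the set. A probe was taken by name, not by its values, where its gene name or RefSeq accession on the array stood for one of these genes. The set of genes itself was chosen with earlier results of these data known. All 9 genes were found, on 11 of 41012 probes, and all 9 were among the 24462 genes tested.

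In the collecting duct and connecting tubule, sodium enters principal cells from the urine through ENaC and leaves them toward the blood through the Na,K-ATPase. Aldosterone binds the mineralocorticoid receptor, which raises transcription of channel and pump genes and of the kinase Sgk1, and Sgk1 in turn holds Nedd4l away from the channel. Cortisol, or corticosterone in the rat, binds the same receptor, and Hsd11b2 keeps it from doing so by converting it to an inactive form. Hsd11b2 and Fxyd4 are best known from collecting duct cells, whereas Atp1b1 and Fxyd2 serve the pump along much of the nephron.

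RNA came from 8 kidney allografts of male inbred rats of 120 to 250 g, taken 24 h after transplantation from Dark Agouti donors (DA; RT1a) into Lewis recipients (LEW; RT1l) that had lost both of their own kidneys. Every graft had been cooled with University of Wisconsin solution and held at 4 °C for 25 min. The first group of 2 grafts, with a high difference in weight, received a single intravenous injection of 500 µg of neutralizing anti-IL6R antibody directly after transplantation. The second, also with a high difference, received a single intravenous injection of 15 mg/kg prednisolone, a synthetic glucocorticoid, at the same point. The third was the untreated high-difference group, whose donors were 20 to 50% lighter than the recipients, and the fourth the untreated low-difference group, at 0 to 20%. Each group held 2 biological replicates, and 1 µg of total RNA per graft was labelled with Cy3 and put on a 1-colour array. No kidney without transplantation was analysed here, and age and the part of the kidney sampled are not given in the sources used here. An allograft holds donor kidney cells and whatever recipient leukocytes have entered it.

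The arrays differed in detection and in slide. Between 64.5 and 74.0% of probe spots were well above background per array. All 4 arrays of treated grafts lay on slide 2 and all 4 of untreated grafts on slide 1, so treatment and slide cannot be told apart. The comparison of high with low difference and that of the treatments with each other each lay within 1 slide. The 2 prednisolone arrays differed more than other replicates, with a median gap of 0.43 log2 units over all genes, against 0.22 for the anti-IL6R pair, 0.28 for the untreated pair with high difference and 0.25 for the pair with low difference. Of 9 markers listed for principal cells, the channel's home cell, 7 were well above background on all 8 arrays, among them the water channel Aqp2. Elf5 was well above background on at most 1 array, and Aqp4 was not on high-difference replicate 2. Of 6 adrenal cortex markers 3 were tested, and Cyp11b2, which makes aldosterone, was well above background on at most 1 array.

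A level is the log2 of the array's processed signal relative to the 75th percentile of that array, so a level belongs to its own probe and is not set against another gene's. Differences are between group means and carry limma's moderated standard error (SE), and adjusted p-values are limma's after Benjamini-Hochberg over the 24462 genes. An exact two-sided permutation test of 2 arrays against 2 has a smallest possible p of 0.33, so the test of each gene rests on limma's fit across genes. All 9 genes passed the filter on dim probes, were well above background on all 8 arrays and were saturated on none.

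Promoter sequence of Rattus norvegicus, from RefSeq on the GRCr8 assembly, was at hand for 4 of the 9 genes: Scnn1g, Scnn1b, Fxyd4 and Nedd4l. Scnn1a, Nr3c2, Hsd11b2, Atp1b1 and Fxyd2 had no entry. The stretches are shown because Scnn1g and Scnn1b lie next to each other in the same orientation, with 0 listed genes between them, and because Nedd4l differed from the channel subunits in its levels below. Each runs 5′ to 3′ on the gene's strand from 250 bases before to 50 bases after the annotated start, and capitals mark every match to the GC box GGGCGG or its reverse complement CCGCCC. Scnn1g lies at chr1:185735975-185736274 and Scnn1b at chr1:185861126-185861425, both on the plus strand. Fxyd4 lies at chr4:152785996-152786295 on the minus strand, and Nedd4l at chr18:60663720-60664019 on the plus strand.
Scnn1g: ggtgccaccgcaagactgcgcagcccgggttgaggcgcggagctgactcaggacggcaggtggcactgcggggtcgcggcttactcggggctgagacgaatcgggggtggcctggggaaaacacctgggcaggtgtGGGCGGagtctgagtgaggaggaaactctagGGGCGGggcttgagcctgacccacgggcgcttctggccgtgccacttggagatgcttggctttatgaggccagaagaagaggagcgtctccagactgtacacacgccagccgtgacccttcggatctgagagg
Scnn1b: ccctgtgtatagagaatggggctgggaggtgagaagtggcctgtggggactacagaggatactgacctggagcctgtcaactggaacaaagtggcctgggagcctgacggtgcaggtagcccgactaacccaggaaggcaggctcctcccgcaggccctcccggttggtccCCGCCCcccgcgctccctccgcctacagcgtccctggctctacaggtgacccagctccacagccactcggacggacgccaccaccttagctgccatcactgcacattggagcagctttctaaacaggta
Fxyd4: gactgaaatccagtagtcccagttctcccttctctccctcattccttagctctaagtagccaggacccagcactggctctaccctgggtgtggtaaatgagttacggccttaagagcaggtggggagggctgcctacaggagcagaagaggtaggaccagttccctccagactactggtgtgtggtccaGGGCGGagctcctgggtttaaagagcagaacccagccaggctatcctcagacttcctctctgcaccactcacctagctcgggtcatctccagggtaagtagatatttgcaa
Nedd4l: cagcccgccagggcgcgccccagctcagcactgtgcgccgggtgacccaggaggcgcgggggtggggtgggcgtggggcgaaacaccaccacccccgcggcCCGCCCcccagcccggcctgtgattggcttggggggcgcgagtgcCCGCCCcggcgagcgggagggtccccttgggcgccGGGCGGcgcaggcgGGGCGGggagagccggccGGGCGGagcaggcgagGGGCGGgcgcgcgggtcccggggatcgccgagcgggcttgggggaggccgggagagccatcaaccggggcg

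The GC box occurred in 4 of the 4 promoters, and in 34.9% of all 27457 listed promoters of the same 300 bases. Matches began at positions -114 and -83 from the start site in Scnn1g, at -79 in Scnn1b and at -61 in Fxyd4, while Nedd4l held 6, from -149 to -21. The G and C content was 65.0% for Scnn1g, 62.7% for Scnn1b, 54.7% for Fxyd4 and 81.7% for Nedd4l, where the median of all promoters was 52.3% and 99.5% of promoters had a lower content than Nedd4l. The half-site of the steroid receptor element, AGAACA or TGTTCT on either strand, was in 0 of the 4 and in 20.1% of all promoters. The GATA motif AGATAA, or TTATCT, was in 0 of 4 and in 11.3% of all. A match here is only a run of letters, and a missing match says only that those letters are not within these windows.

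The channel's α subunit, Scnn1a, is the subunit without which the others form little channel. Its level was 0.71 and -0.081 in anti-IL6R grafts, -0.37 and 1.101 in prednisolone grafts, -0.047 and 0.19 in high-difference grafts, and 1.32 and 0.47 in low-difference grafts. The low-difference grafts lay above the high-difference grafts without overlap, and the prednisolone grafts held the lowest and the second highest level of the 8 arrays. The β subunit Scnn1b had levels of 3.39 and 2.57 in anti-IL6R grafts, 2.45 and 4.00 in prednisolone grafts, 2.72 and 2.67 in high-difference grafts, and 3.96 and 3.35 in low-difference grafts. The highest array was prednisolone replicate 2 and the lowest prednisolone replicate 1, and high- and low-difference grafts again did not overlap. The γ subunit Scnn1g had levels of 3.35 and 2.54 in anti-IL6R grafts, 2.21 and 3.87 in prednisolone grafts, 2.49 and 2.88 in high-difference grafts, and 3.58 and 3.32 in low-difference grafts. As with the β subunit, the prednisolone pair spanned all the other arrays.

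**Figure D1:**
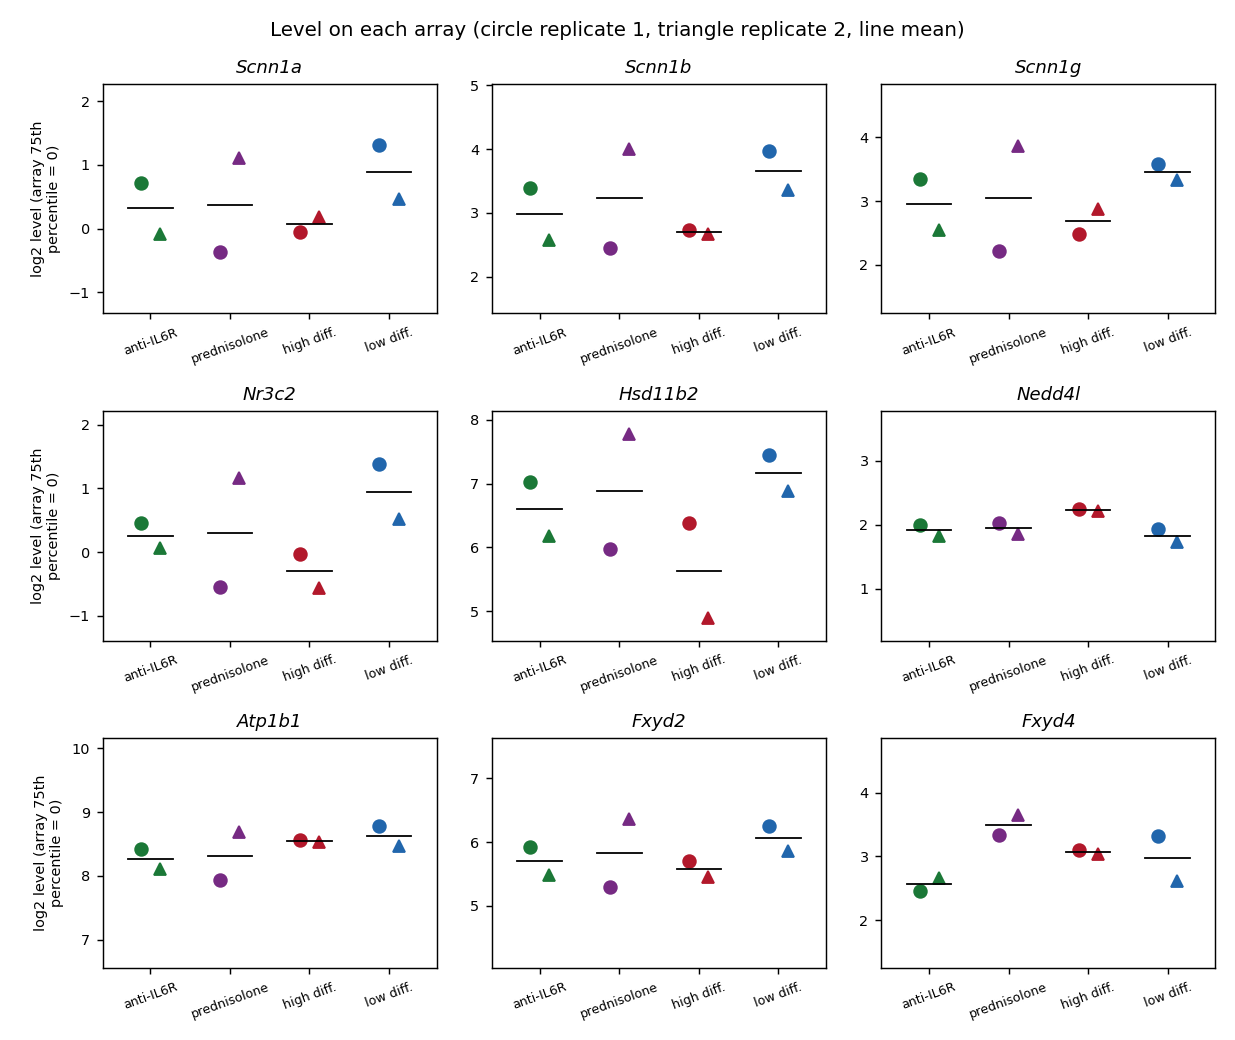
Log2 level of each of the 9 genes on each of the 8 arrays, relative to the array's 75th percentile, with 1 panel per gene and the 4 groups along the horizontal axis. Circles are replicate 1, triangles replicate 2 and lines group means, and all vertical axes span the same range. The prednisolone replicates of Scnn1b lie at 2.45 and 4.00, around every other array, whereas the 8 arrays of Nedd4l lie within 0.53 log2 units.

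The 3 channel subunits are made as separate transcripts, yet their levels shifted alike between the replicates of each treated group. Taken from each gene's own mean over the 8 arrays, the subunits averaged 0.29 and -0.52 log2 units in anti-IL6R grafts, -0.76 and 0.80 in prednisolone grafts, -0.47 and -0.28 in high-difference grafts, and 0.76 and 0.19 in low-difference grafts. On a given array the highest and lowest of the 3 deviations were 0.070 to 0.35 log2 units apart. The replicate arrays of both treated groups were farther apart than that. In untreated grafts the subunits shifted less alike. Replicate 2 minus replicate 1 was 0.24, -0.051 and 0.40 for Scnn1a, Scnn1b and Scnn1g in high-difference grafts. In low-difference grafts it was -0.85, -0.61 and -0.26. Prednisolone replicate 2 exceeded replicate 1 by 1.47 in Scnn1a, 1.55 in Scnn1b and 1.65 in Scnn1g, gaps larger than those of 90.1, 91.1 and 92.0% of all genes between the same arrays. Anti-IL6R replicate 2 differed from replicate 1 by -0.79, -0.82 and -0.81 log2 units for the same 3 genes, wider than for 94.7, 95.3 and 95.1% of genes. These gaps include the scaling, with a 75th percentile signal of 1453 and 845 in prednisolone and 1204 and 1568 in anti-IL6R replicates 1 and 2. Before scaling, prednisolone signals were 1124 and 1813 for Scnn1a, 7924 and 13537 for Scnn1b, and 6743 and 12318 for Scnn1g. Anti-IL6R signals were 1973 and 1483, 12661 and 9334, and 12306.5 and 9120. The directions held, with smaller gaps.

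Each subunit's probe was printed as 10 spots on every array, which gives a measure of technical error. The SD between spots was 0.035 to 0.090 log2 units for Scnn1a, 0.024 to 0.12 for Scnn1b and 0.021 to 0.14 for Scnn1g. The gaps between the replicate grafts of either treated group, which include the scaling, were wider than the spread between spots of 1 array. Spots of 1 array share the same RNA and labelling, so this spread does not cover error in those steps. A second probe of Scnn1a, with 1 spot, was well above background on 6 of 8 arrays. It read -4.52 and -5.54 in anti-IL6R grafts, -6.06 and -4.44 in prednisolone grafts, -5.43 and -5.26 in high-difference grafts, and -4.13 and -5.02 in low-difference grafts. The prednisolone replicates stood apart in the same direction on that probe, and prednisolone replicate 1 was again the lowest array. On that array the probe was not well above background, so the size of this gap is uncertain.

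**Figure D2:**
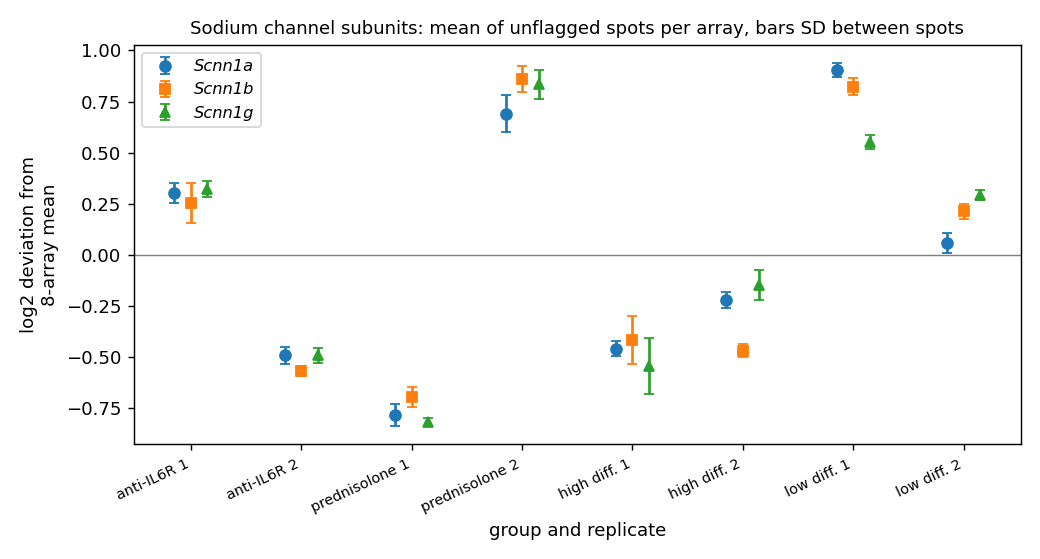
Deviation of Scnn1a, Scnn1b and Scnn1g from their own 8-array means (log2 units, vertical axis) on each array (horizontal axis, by group and replicate). Points are the mean of the unflagged spots of a probe and bars the SD between those spots. On a given array the 3 subunits lie 0.070 to 0.35 log2 units apart, at a mean of -0.76 and 0.80 in the 2 prednisolone grafts.

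The receptor and its protecting enzyme followed. Nr3c2 had levels of 0.46 and 0.062 in anti-IL6R grafts, -0.55 and 1.16 in prednisolone grafts, -0.034 and -0.55 in high-difference grafts, and 1.39 and 0.52 in low-difference grafts. Both anti-IL6R arrays and both low-difference arrays lay above both high-difference arrays. Another Nr3c2 probe was well above background on 1 of 8 arrays and gave no fold. Hsd11b2 had levels of 7.03 and 6.18 in anti-IL6R grafts, 5.97 and 7.78 in prednisolone grafts, 6.38 and 4.90 in high-difference grafts, and 7.44 and 6.88 in low-difference grafts. Its range over the 8 arrays, 2.89 log2 units, was the widest of the 9 genes and wider than for 93.9% of all genes. High-difference replicate 2 was the lowest array, 1.48 log2 units from its replicate, a gap wider than for 96.3% of genes.

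Nedd4l, the channel's ubiquitin ligase, varied least. Its level was 1.995 and 1.83 in anti-IL6R grafts, 2.03 and 1.86 in prednisolone grafts, 2.25 and 2.22 in high-difference grafts, and 1.94 and 1.72 in low-difference grafts. Here the high-difference grafts held the 2 highest levels of the 8 arrays, whereas the channel subunits had their lowest group means there. The prednisolone replicates lay 0.17 apart. The range over all arrays was 0.53 log2 units, and 14.6% of genes had a smaller one.

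Among the pump genes, Atp1b1, the β1 subunit that carries the pump to the membrane, had levels of 8.42 and 8.10 in anti-IL6R grafts, 7.94 and 8.69 in prednisolone grafts, 8.55 and 8.52 in high-difference grafts, and 8.78 and 8.46 in low-difference grafts. The groups lay close together, and both anti-IL6R arrays were below both high-difference arrays. Its signal stood at 56.0 to 75.5% of the scanner's saturation value. Fxyd2, the γ subunit of the pump, had levels of 5.92 and 5.49 in anti-IL6R grafts, 5.30 and 6.36 in prednisolone grafts, 5.70 and 5.46 in high-difference grafts, and 6.26 and 5.86 in low-difference grafts. As for the β and γ subunits of the channel, prednisolone replicate 1 was the lowest array and replicate 2 the highest. These gaps include the scaling, since the 75th percentile signal was 1453 on prednisolone replicate 1 and 845 on replicate 2. Before scaling, the processed signals on these arrays were 57383 and 69394 for Fxyd2, and 356340 and 348149 for Atp1b1.

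Fxyd4, also called corticosteroid hormone-induced factor, had levels of 2.46 and 2.66 in anti-IL6R grafts, 3.33 and 3.65 in prednisolone grafts, 3.09 and 3.04 in high-difference grafts, and 3.32 and 2.62 in low-difference grafts. Both prednisolone arrays lay above all 6 others, replicate 1 only just above low-difference replicate 1, and the lowest array was anti-IL6R replicate 1. Its prednisolone replicates were 0.32 log2 units apart, less than those of the channel subunits.

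Ranked by group mean, 6 genes had 1 order: low difference, then prednisolone, then anti-IL6R, then high difference. For Scnn1b these means were 2.98 ± 0.58 in anti-IL6R, 3.22 ± 1.099 in prednisolone, 2.70 ± 0.036 in high-difference grafts and 3.66 ± 0.43 in low-difference grafts (SD, n = 2 each). The other 5 were Scnn1a, Scnn1g, Nr3c2, Hsd11b2 and Fxyd2. Prednisolone overlapped both its neighbours in that order in each of these genes. Low and high difference, at its ends, did not overlap in any of the 6. Of all genes, 23.0% were lower in high than in low difference without overlap. These 6 were grouped by that same order, so their separation adds no support to it. The order also sets groups of different slides side by side. Nedd4l was instead highest in high-difference grafts (2.23 ± 0.023), Atp1b1 in low-difference (8.62 ± 0.23) and Fxyd4 in prednisolone grafts (3.49 ± 0.23).

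The comparison of high with low difference asks what the weight mismatch between donor and recipient went with in untreated grafts. Channel, receptor and enzyme transcripts were lower in high-difference grafts on both arrays, but no difference passed the test. The difference was -0.82 ± 0.55 for Scnn1a, -0.96 ± 0.55 for Scnn1b and -0.77 ± 0.56 for Scnn1g (log2 ± SE, 2 arrays a group), which is 1.77-, 1.95- and 1.70-fold lower. Nr3c2 differed by -1.24 ± 0.59, with a 95% interval of -2.66 to 0.18 and an adjusted p of 0.366 by limma. Hsd11b2 had the widest difference of the 9, at -1.52 ± 0.73 or 2.87-fold lower, with an interval of -3.29 to 0.25 and a limma adjusted p of 0.372. Without high-difference replicate 2 it was -0.78, and without replicate 1 it was -2.26. Nedd4l was 1.32-fold higher in high-difference grafts, at 0.40 ± 0.18 with an interval of -0.036 to 0.84.

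The pump genes differed less. Fxyd2 was at -0.48 ± 0.38, Atp1b1 at -0.082 ± 0.29 and Fxyd4 at 0.097 ± 0.27 log2 units in high- minus low-difference grafts. By limma 0 of the 9 genes had an adjusted p under 0.05, beside 0% of all genes, and 0 had an unadjusted p under 0.05, beside 14.7% of all genes. Adjusted p-values ran from 0.354 to 0.898. High- and low-difference arrays did not overlap in 7 of the 9, lower in 6 and higher in 1, where 56.5% of all genes did not overlap, 23.0% lower and 33.5% higher. The difference was below 0 in 7 of the 9, and in 44.0% of all genes. The median difference of the 9 genes was -0.77, and that of all genes 0.072.

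Markers of other cells and of segments differed between the same arrays. The summed linear level of the 8 tested of 9 markers of the thick ascending limb and distal convoluted tubule was 244 to 352 in high-difference grafts and 508 to 846 in low-difference grafts. The bright Umod weighs most in that sum. Of these 8 markers 7 lay below and 1 above 0 in high minus low difference, with a median of -1.28. Of 9 principal cell markers 8 were tested, and 6 of the 8 lay below 0 in high minus low difference, with a median of -0.70. Aqp2 read 2.60 and 0.56 in high-difference, against 4.54 and 3.68 in low-difference grafts, and Aqp3, Avpr2 and Tspan1 were also lower there without overlap. The keratins Krt8 and Krt18, at 0.90 and 0.82, lay the other way, and with them the summed level of the 8 was 210 to 467 in high-difference and 299.7 to 329.6 in low-difference grafts. The 7 tested of 8 tubular injury markers summed to 808 to 1303 in high-difference grafts, against 584 to 803 in low-difference grafts. The bright Spp1 and Clu weigh most in that sum, and the Clu groups overlapped. In high minus low difference 6 of the 7 lay above 0, with a median of 1.05, while Vcam1 was at -1.87 without overlap. The 9 T and NK cell markers summed to 0.507 to 0.540 in high-difference and 1.502 to 1.58 in low-difference grafts, and 2 of the 9 were well above background on all arrays. The part of these markers in the differences of channel genes was not tested. In whole tissue, fewer cells of a type and less RNA per cell cannot be told apart.

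**Figure D3:**
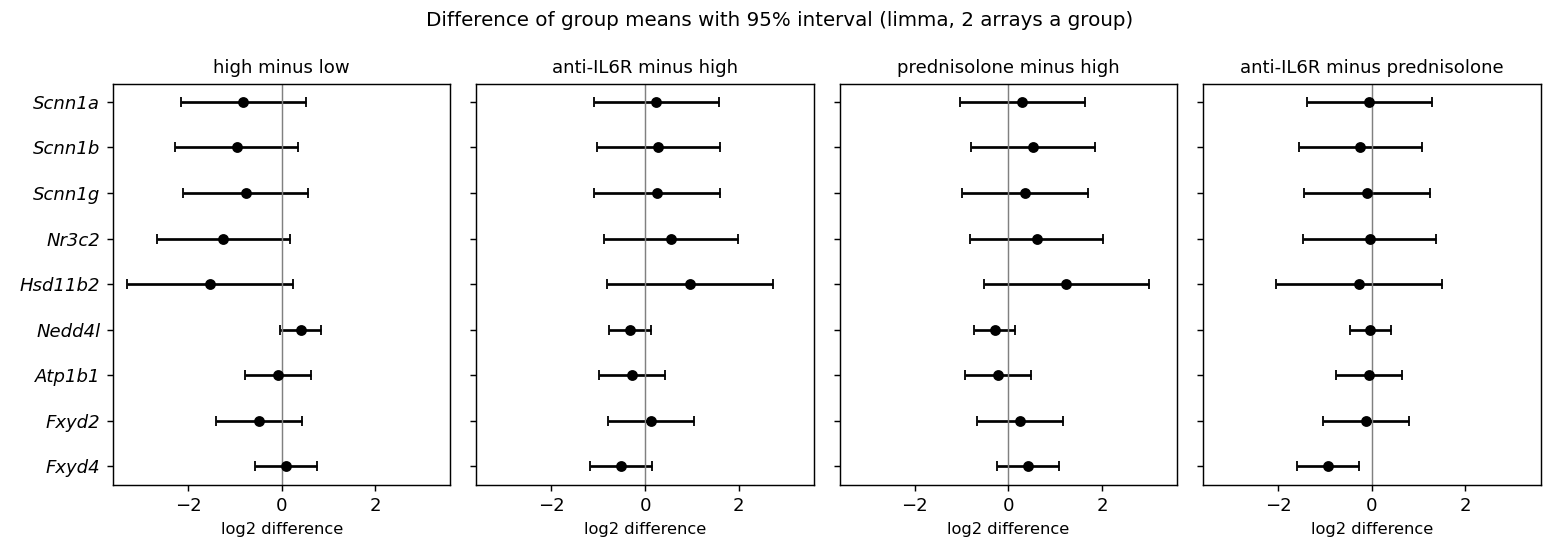
Difference of group means for each of the 9 genes (log2 units, horizontal axis) in 4 comparisons, 1 panel each, with points for the limma estimate and bars for its 95% interval (2 arrays a group). In high minus low difference 7 of 9 estimates lie below 0. Among the intervals shown, only that of Fxyd4 in anti-IL6R minus prednisolone, from -1.59 to -0.27, leaves out 0.

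Anti-IL6R grafts were set against untreated grafts of the same weight class to ask what blocking the IL-6 receptor went with. The channel subunits lay close to the untreated grafts on average, at 0.24 ± 0.55 for Scnn1a, 0.29 ± 0.55 for Scnn1b and 0.26 ± 0.56 for Scnn1g (log2 ± SE, 2 arrays a group). The interval for Scnn1b, -1.03 to 1.60, leaves room for changes either way. Without anti-IL6R replicate 1 these differences were -0.15, -0.13 and -0.14. Nr3c2 was 1.47-fold higher in anti-IL6R grafts, at 0.55 ± 0.59, and Hsd11b2 1.96-fold higher, at 0.97 ± 0.73. Without high-difference replicate 2 the Hsd11b2 difference was 0.23.

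Nedd4l was at -0.32 ± 0.18 and Atp1b1 at -0.28 ± 0.29 in anti-IL6R minus high-difference grafts, and with quantile normalization the Atp1b1 difference was 0.22. Fxyd4 was 1.42-fold lower in anti-IL6R grafts, at -0.51 ± 0.27 with an interval of -1.17 to 0.16 and a limma adjusted p of 0.368. Fxyd2 was at 0.13 ± 0.38. None of the 9 passed an adjusted p of 0.05 by limma, beside 0% of all genes, and 0 had an unadjusted p under 0.05, beside 17.7% of all. The arrays did not overlap in 4 of 9 genes, Nr3c2 higher and Nedd4l, Atp1b1 and Fxyd4 lower, where 59.8% of all genes did not overlap, 23.5% higher and 36.3% lower. The difference was below 0 in 3 of 9, and in 56.8% of all genes. The median of the 9 was 0.24, against -0.087 for all genes.

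Immune and segment markers differed between these arrays too. T and NK cell markers summed to 1.57 to 1.99 in anti-IL6R and 0.507 to 0.540 in high-difference grafts, and the 7 tested of 8 macrophage and monocyte markers to 9.34 to 14.1 in anti-IL6R and 3.95 to 4.35 in high-difference grafts. The 10 proximal tubule markers summed to 381 to 438 in anti-IL6R and 215 to 425 in high-difference grafts. Of 8 tested principal cell markers 5 lay above and 3 below 0, with a median of 0.51. Aqp2 read 3.17 and 3.91 in anti-IL6R, against 2.60 and 0.56 in high-difference grafts, while Krt8 and Krt18 were at -1.01 and -0.96. Of 8 tested markers of the thick ascending limb and distal convoluted tubule 6 lay above and 2 below 0, with a median of 0.93. The part of these cells in the values above was not tested.

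Prednisolone grafts were compared with the same untreated grafts, which this comparison shares with the preceding one. The question was what a glucocorticoid, a hormone class that can also bind the mineralocorticoid receptor, went with. Scnn1a was at 0.29 ± 0.55, Scnn1b at 0.53 ± 0.55, Scnn1g at 0.36 ± 0.56 and Nr3c2 at 0.60 ± 0.59 (log2 ± SE, 2 arrays a group), and none separated the groups. Hsd11b2 was 2.36-fold higher in prednisolone grafts, at 1.24 ± 0.73 with an interval of -0.53 to 3.01 and a limma adjusted p of 0.516. Fxyd4 was 1.34-fold higher on both arrays, at 0.42 ± 0.27 with an interval of -0.24 to 1.08, and Nedd4l was lower on both, at -0.29 ± 0.18. Fxyd2 was at 0.26 ± 0.38, and Atp1b1 at -0.23 ± 0.29 (0.11 with quantile normalization).

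These means joined 2 unlike arrays. Without prednisolone replicate 1 the differences were 1.03 for Scnn1a, 1.30 for Scnn1b, 1.18 for Scnn1g and 1.45 for Nr3c2. Without replicate 2 they were -0.44, -0.25, -0.47 and -0.25 for the same genes, so the direction rests on which graft is used. Hsd11b2 was at 2.15 without replicate 1 and 0.33 without replicate 2, and Fxyd4 at 0.58 and 0.26. By limma 0 of the 9 passed an adjusted p of 0.05, beside 0% of all genes, and 0 had an unadjusted p under 0.05, beside 11.8% of all. The arrays did not overlap in 2 of 9 genes, Fxyd4 higher and Nedd4l lower, where 38.9% of all genes did not overlap, 13.9% higher and 25.0% lower. The difference was below 0 in 2 of 9, and in 57.6% of all genes. The median of the 9 was 0.36, and that of all genes -0.078.

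The same 2 prednisolone grafts differed in markers of several other cells. Markers of the thick ascending limb and distal convoluted tubule summed to 223 in replicate 1 and 603 in replicate 2, with Umod weighing most. The median deviation of that list from its means over all arrays was -0.79 and 0.96 log2 units. Macrophage and monocyte markers summed to 18.8 and 4.33, the 3 tested of 7 neutrophil markers to 2.02 and 0.152, T and NK cell markers to 1.66 and 0.679, and tubular injury markers to 622 and 248, replicate 1 before replicate 2. Aqp2 read 2.88 and 4.65. The graft with the higher channel, receptor and enzyme levels thus had the higher distal tubule markers and the lower leukocyte and injury markers. Proximal tubule markers did not clearly follow the distal ones. Their median deviation from their means over all arrays was 0.26 log2 units in replicate 1 and -0.87 in replicate 2. Their summed level differed little, at 347 and 368. The part of all these markers in the gap was not tested.

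**Figure D4:**
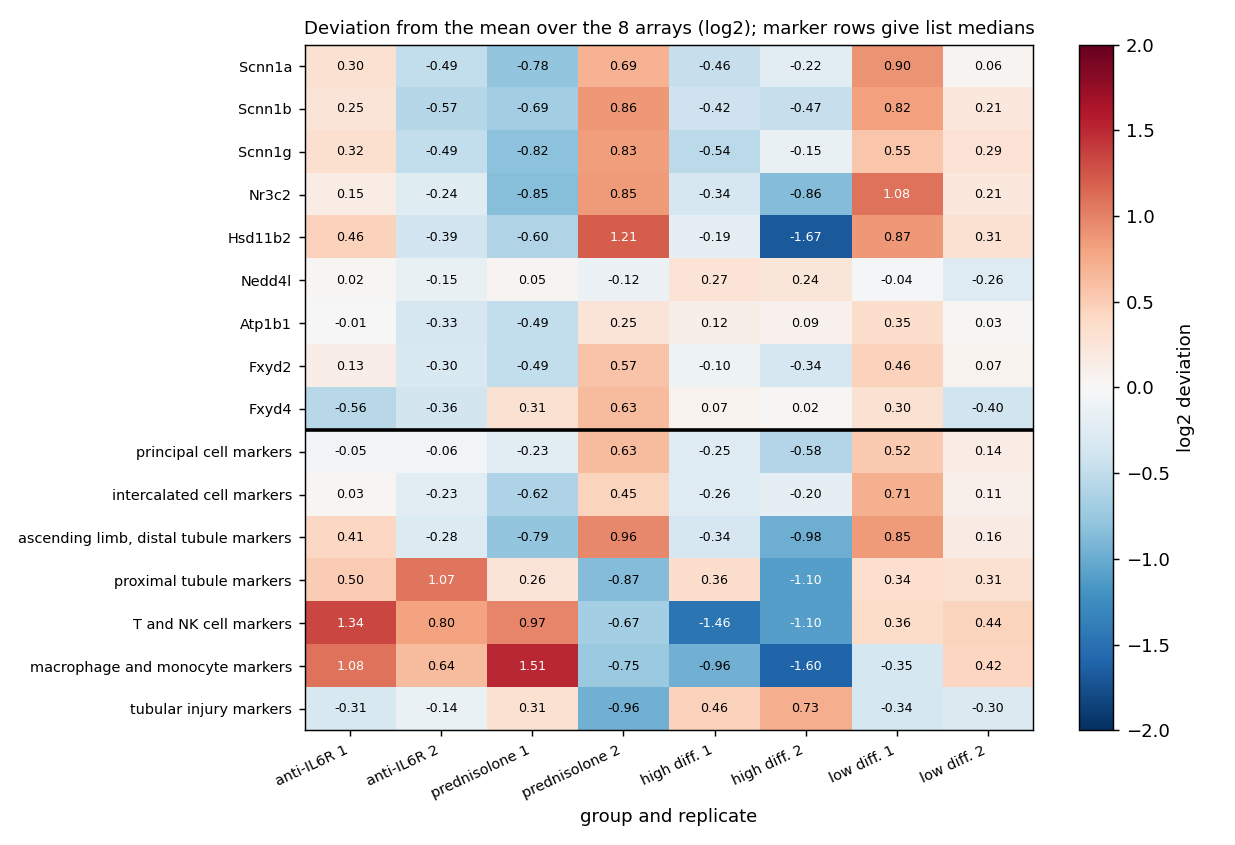
Deviation from the mean over the 8 arrays (log2 units, colour and printed value) of the 9 genes, above the line, and of the median of 7 marker lists, below it, for each array in columns by group and replicate. In prednisolone replicate 1 the channel subunits are low and the macrophage markers high, and in replicate 2 the reverse.

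Between the treatments, on a single slide, Fxyd4 stood apart. It was 1.90-fold lower in anti-IL6R than in prednisolone grafts, at -0.93 ± 0.27 log2 units with an interval of -1.59 to -0.27, and lower on both arrays. Its unadjusted limma p was 0.0136 and its adjusted p 0.9999, so it did not pass. Leaving out each array in turn gave -1.09 to -0.77. The difference was lower for 0.903% of all genes. The other 8 genes overlapped between the treatments, with Scnn1a at -0.049, Scnn1b at -0.24, Scnn1g at -0.094, Nr3c2 at -0.047 and Hsd11b2 at -0.27. Their intervals were wide, as for Scnn1a from -1.38 to 1.28 and for Hsd11b2 from -2.04 to 1.496, so overlap does not show that the treatments act alike. Nedd4l at -0.030, Atp1b1 at -0.052 and Fxyd2 at -0.13 differed little.

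By limma 0 of 9 passed an adjusted p of 0.05 between the treatments, beside 0% of all genes, and 1 had an unadjusted p under 0.05, beside 3.40% of all. The arrays did not overlap in 1 of 9, lower, where 26.2% of all genes did not overlap, 14.3% lower and 11.9% higher. All 9 differences were below 0, with a median of -0.094, where 51.9% of all genes were below 0. Without prednisolone replicate 2 that median was 0.54, without prednisolone replicate 1 it was -0.90, and without anti-IL6R replicate 2 it was 0.15.

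Around these genes, 4 lists held 56 distinct pathway genes, of which 49 were tested. By limma 0 of the 49 passed an adjusted p of 0.05 in any of the 4 comparisons. An unadjusted p under 0.05 was found for 6 of them between high and low difference, 3 between anti-IL6R and high difference, 4 between prednisolone and high difference and 2 between the treatments, beside 14.7, 17.7, 11.8 and 3.40% of all genes. The lowest adjusted p of each comparison was 0.260, 0.152, 0.364 and 0.9999 in that order.

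Of 11 other Na,K-ATPase subunits and FXYD proteins 10 were tested. In high minus low difference 3 lay above and 7 below 0, with a median of -0.42, while 7 lay above and 3 below in anti-IL6R minus high difference, with a median of 0.71. In prednisolone minus high difference 9 lay above and 1 below, with a median of 0.62. These counts use 1 probe per gene, and for Fxyd5 a second probe, well above background on all 8 arrays, had the opposite sign. It gave 0.46, -0.60 and -0.78 in these comparisons, in that order, where the tested probe gave -0.33, 0.75 and 0.74. Fxyd1, phospholemman, which restrains the pump in heart and muscle, had levels of -0.998 and -1.36 in anti-IL6R grafts, -2.13 and -2.38 in prednisolone grafts, -2.83 and -3.57 in high-difference grafts, and -1.60 and -1.24 in low-difference grafts. Both high-difference arrays lay below the other 6. Fxyd1 was 3.43-fold lower in high- than in low-difference grafts, at -1.78 ± 0.30, with an unadjusted p of 8.98e-04 and a limma adjusted p of 0.260. It was 4.06-fold higher in anti-IL6R than in high-difference grafts, at 2.02 ± 0.30 with a limma adjusted p of 0.152, and 1.92-fold higher in prednisolone grafts, at 0.94 ± 0.30 with an adjusted p of 0.364. Between the treatments it was 2.11-fold higher in anti-IL6R grafts, at 1.08 ± 0.30, where 7 of the 10 genes lay above 0 with a median of 0.15, so Fxyd1 and Fxyd4 stood on opposite sides. Atp1b2, the β2 subunit, was at -1.13 ± 0.45 in high minus low difference and at 1.02 ± 0.45 in anti-IL6R minus high difference.

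Of 17 genes of channel processing and regulation 13 were tested. In high minus low difference 8 lay above and 5 below 0, with a median of 0.17. The counts were 3 above and 10 below in anti-IL6R minus high difference (median -0.13), and again 3 above and 10 below in prednisolone minus high difference (median -0.15). Between the treatments 8 lay above and 5 below, with a median of 0.019. Usp2, a ubiquitin protease known to remove ubiquitin from the channel, was at -1.52 ± 0.81 in high minus low difference (limma adjusted p 0.401). Prss8, the channel-activating protease prostasin, was at -0.70 ± 0.43 in the same comparison (limma adjusted p 0.447). Sgk1, the aldosterone-induced kinase, had levels of 3.20 and 2.65 in anti-IL6R grafts, 3.29 and 2.75 in prednisolone grafts, 3.19 and 3.77 in high-difference grafts, and 3.15 and 2.97 in low-difference grafts. Its high-difference arrays lay above the low-difference ones and overlapped those of prednisolone and of anti-IL6R, and its difference was 0.42 in high minus low difference. Ywhaz, a 14-3-3 protein, was at -0.53 ± 0.20 in anti-IL6R minus high difference (limma adjusted p 0.258), and Furin, a protease that cleaves channel subunits, at -0.36 ± 0.18 in prednisolone minus high difference.

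All 16 genes of steroid receptors, steroid metabolism and aldosterone-induced transcription were tested, and they divided evenly: 8 above and 8 below 0 in high minus low difference (median -0.045) and in prednisolone minus high difference (median -0.033). In anti-IL6R minus high difference 7 lay above and 9 below (median -0.16), and between the treatments 8 lay on each side (median 0.021). Lcn2, a secreted iron-binding protein also listed as a tubular injury marker, was at 2.56 ± 0.97 in high minus low difference (limma adjusted p 0.325). Its level was -2.23 and -2.72 in anti-IL6R grafts, -1.74 and -4.03 in prednisolone grafts, -1.93 and 0.31 in high-difference grafts, and -3.92 and -2.82 in low-difference grafts. High-difference replicate 2, the array with the lowest Hsd11b2, thus had the highest Lcn2. Klk1, tissue kallikrein, was at -2.11 ± 1.03 in high minus low difference (limma adjusted p 0.375), and it belongs to a family of near-identical genes that 1 probe may not tell apart.

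Glucocorticoid-responsive genes on that list did not pass in prednisolone grafts. Fkbp5, a classic glucocorticoid-induced gene, was at 0.35 in prednisolone minus high difference without overlap of the arrays (limma adjusted p 0.521), and its other probes gave 0.44 and 0.27. Tsc22d3, another such gene, was at -0.083 on the probe tested and at 0.21 on a second probe, and Per1, a clock gene with the same property, at -0.23. Zbtb16, on the same list, was at -0.78 without overlap (limma adjusted p 0.792), on a probe well above background on 6 arrays. Its second probe, well above background on 1 array, gave 1.40. Sgk1 was at -0.46. Hsd11b1, which regenerates active glucocorticoid, was 1.60-fold lower in prednisolone grafts, at -0.68 ± 0.26 (limma adjusted p 0.408), and at -0.73 on a second probe. H6pd, which supplies that enzyme with its cofactor, was 1.51-fold lower, at -0.59 ± 0.23 (limma adjusted p 0.409). Nr3c1, the glucocorticoid receptor, was at 0.42 in prednisolone minus high difference (limma adjusted p 0.488) and at 0.41 ± 0.22 in anti-IL6R minus high difference (limma adjusted p 0.372).

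Of 15 genes of the WNK-SPAK kinase pathway, thiazide-sensitive transport and potassium secretion 13 were tested. In high minus low difference 3 lay above and 10 below 0, with a median of -0.49. In anti-IL6R minus high difference 9 lay above and 4 below (median 0.21), as in prednisolone minus high difference (median 0.19), and between the treatments 5 lay above and 8 below (median -0.13). Slc12a3, the thiazide-sensitive sodium chloride cotransporter of the distal convoluted tubule, had levels of 0.75 and -0.23 in anti-IL6R grafts, -0.13 and 1.31 in prednisolone grafts, -0.22 and -0.84 in high-difference grafts, and 1.73 and 0.69 in low-difference grafts. Low-difference grafts lay above high-difference grafts, and the prednisolone replicates stood apart as they did for the channel subunits. Slc12a3 was 3.33-fold lower in high- than in low-difference grafts, at -1.74 ± 0.62 (limma adjusted p 0.320). Kcnj10, a basolateral potassium channel, was not well above background in high-difference grafts. It was at least 1.19-fold lower there than in low-difference grafts (limma adjusted p 0.322). The bound sets the brighter group's mean against the lowest level well above background on the dimmer group's arrays, or the probe's own level there where that is higher. Oxsr1, a kinase that acts on the cotransporter, was at 0.60 ± 0.27 in high minus low difference and at -0.69 ± 0.27 in anti-IL6R minus high difference, where a second probe gave 0.28 and -0.54.

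The genes whose levels were most like those of a channel, a receptor and a pump gene were found among 11772 genes with a symbol by Pearson's r over the 8 arrays, which share grafts, slides and scaling. For Scnn1b they included Klk1c10 (0.994) and Gdf6 (0.990). For Nr3c2 they were Tenm3 (0.999), Bckdhb (0.990) and Wdsub1 (0.989). For Atp1b1 they were Cyp2j4 (0.983), Hoxb9 (0.978) and Aktip (0.975). These values are the highest of many and are given as a description only.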

How the data were processed

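Per the file headers, the deposited intensities were made with Agilent Feature Extraction 9.5.1.1, which subtracted background and detrended each array without scaling arrays to each other. The value table that the authors deposited is linear intensity times a factor per array, whose origin the sources used here do not give; it served as an alternative. RNA was labelled with Cy3, per the labels' protocols.

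Control spots and outlier-flagged spots were dropped, log2 signals were averaged over the 10 spots of each of 263 replicated probes, and the 75th percentile of an array was taken off its values. Of 41012 probes, 765 lacked an unflagged spot on at least 1 array, and 11561 were not well above background on both arrays of any group. The other 28686 covered 24462 genes, and the brightest probe was used for a gene. Names in the files were updated through RefSeq (GRCr8), where 10735 probes were found through an accession, 5577 through a symbol and 3730 through a synonym, and 20970 were left as named. The probe positions name no build, so none is printed.

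Groups came from the labels. Genes were tested with limma 3.58.1 (R 4.3.3) in 1 fit of all 8 arrays, with 4 residual and 2.37 prior degrees of freedom, Benjamini-Hochberg adjustment and a threshold of 0.05. The fit was tested on simulated data. The 9 genes, the 4 pathway lists and the marker lists were chosen with earlier results of these data known. Pathway genes named in the text were, per list and comparison, among the 3 with the smallest p whose arrays did not overlap. Values of Sgk1, Tsc22d3, Per1, Zbtb16, and Fkbp5 and Nr3c1 in prednisolone grafts, were added after they were seen. Some genes that the naming rules took are not reported here. Linear levels of the tested genes of a marker list were summed per array. Alternatives changed background correction, normalization, filter, flagged spots, probe choice, variance model, source of values, slide and replicate block, and left out each array.

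Replicate numbers did not pair the samples: deviations of same-numbered arrays correlated at -0.351 to 0.366 over the pairs of groups.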

Additional observations from a re-analysis of the deposited data

How the results depend on the processing

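No alternative brought any of the 9 genes past the threshold: of 630 repeated values, 598 kept direction and call, 32 turned direction and 0 became called, with a lowest limma adjusted p of 0.146. Quantile normalization called 3, 7, 4 and 2 genes among all genes, in high minus low, anti-IL6R minus high, prednisolone minus high and anti-IL6R minus prednisolone, where the other processing alternatives called 0. It put Atp1b1 at 0.22, 0.11 and 0.11 in the last 3, and the mean of a gene's probes put Scnn1a at 0.084 between the treatments. Processing alternatives gave medians of the 9 genes of -0.81 to -0.76, 0.24 to 0.32, 0.35 to 0.45 and -0.14 to -0.079. With the replicate number as a block, which the data do not back as a pairing, 0 genes were called in each comparison and the medians were -0.77, 0.24, 0.36 and -0.094. A slide block could be used only within a slide.

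Leaving out each array in turn, where a lone array is assumed to vary like the others, gave 0 to 39, 0 to 169, 0 to 224 and 0 to 130 called genes in the 4 comparisons, highest without prednisolone replicate 1 (as many without replicate 2 in anti-IL6R minus high) except in high minus low, where it was without high-difference replicate 1. Medians of the 9 genes ran from -0.90 to -0.40, -0.14 to 0.64, -0.25 to 1.03 and -0.90 to 0.54. In high minus low, Atp1b1 ran from -0.24 to 0.079 and Fxyd4 from -0.25 to 0.45. In anti-IL6R minus high, Scnn1a ran from -0.15 to 0.64, Scnn1b from -0.13 to 0.70, Scnn1g from -0.14 to 0.67 and Fxyd2 from -0.088 to 0.34. In prednisolone minus high, Scnn1a ran from -0.44 to 1.03, Scnn1b from -0.25 to 1.30, Scnn1g from -0.47 to 1.18, Nr3c2 from -0.25 to 1.45, Atp1b1 from -0.60 to 0.15 and Fxyd2 from -0.27 to 0.78. Between the treatments, Scnn1a ran from -0.79 to 0.69, Scnn1b from -1.02 to 0.54, Scnn1g from -0.92 to 0.73, Nr3c2 from -0.90 to 0.81, Hsd11b2 from -1.18 to 0.64, Nedd4l from -0.12 to 0.055, Atp1b1 from -0.43 to 0.32 and Fxyd2 from -0.65 to 0.40. The cause was not tested. With 2 grafts a group, precision is limited throughout.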

Other observations

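Other segment and cell markers gave values that belong to no comparison above. Summed linear levels of the 8 intercalated cell markers, the acid-base cells that neighbour principal cells, were 211 to 290 in anti-IL6R, 233 to 367 in prednisolone, 268 to 438 in high-difference and 316 to 489 in low-difference grafts. The 7 endothelial markers summed to 60.3 to 68.9 in anti-IL6R, 59.7 to 66.1 in prednisolone, 34.5 to 48.0 in high-difference and 60.9 to 68.1 in low-difference grafts. Podocyte markers summed to 39.2 to 60.4, 50.9 to 56.4, 33.1 to 40.9 and 48.9 to 54.6 in the same order of groups. The median deviation of the 4 tested of 6 red blood cell markers from their 8-array means was -0.37 and -0.54 in anti-IL6R, 1.01 and -0.68 in prednisolone, -0.063 and -0.30 in high-difference, and 0.87 and 0.19 in low-difference grafts. The bright Kdr weighs most in the endothelial sum, Podxl in the podocyte sum, and Atp6v1g3 and Slc26a4 in the intercalated cell sum. The endothelial sums of high-difference grafts lay below those of all the other arrays, as did Kdr itself. All 7 endothelial markers lay below 0 in high minus low difference, with a median of -0.87, and Cdh5 overlapped. No gene of these lists passed limma's adjusted p of 0.05.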
